A study of Homo sapiens with 12 samples.

Results

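Potassium channel genes were followed through a differentiation towards γδ T cells that started from H9, a human embryonic stem cell line in wide use. The members are the 96 protein-coding genes, of 36601 genes in the count table and 19351 protein-coding genes among them, whose symbols open with KCN, continue with letters and then have a number; 26 further symbols of this pattern were not protein-coding and were left out. They comprise 40 voltage-gated channel genes, 16 inward rectifiers (KCNJ), 15 two-pore domain channels (KCNK), 9 calcium-activated channel genes (KCNN and KCNM), 3 genes of the KCNT and KCNU type and 13 auxiliary subunits (KCNAB, KCNE and KCNIP), which form no pore of their own. The KCNMB genes, which encode β subunits as well, were counted with the calcium-activated genes. The 96 genes were taken by name, so that no measured value decided membership. The set itself was chosen with earlier results of these data known.

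Bulk RNA was sequenced from 3 libraries on each of 4 days. The labels call the cells haematopoietic progenitors at day 10, T progenitors at day 15 and again at day 20, and mature γδ T cells at day 25. All 12 libraries came from wild-type, cytokine-induced H9 cells and carry the same batch label. The cells were led to day 10 in APEL medium with CHIR99021, BMP4 and activin A, then VEGF and bFGF, then these with Flt3L, IL-7, SCF and SB431542. From day 10 onwards they were kept in MEM-α with serum, SCF, IL-7, Flt3L and DLL4 (a ligand of Notch receptors), so days 15, 20 and 25 share it. All cells came from a single line, and no label tells if replicates were grown as separate cultures; p-values therefore cover the scatter among these libraries, and that scatter may be technical.

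Potassium channels let potassium leave the cell along its gradient and so set the membrane potential. Voltage-gated channels open on depolarisation, inward rectifiers hold the resting potential, two-pore domain channels carry background leak current, and calcium-activated channels open when cytosolic calcium rises. In T cells the voltage-gated channel encoded by KCNA3 and the calcium-activated channel encoded by KCNN4 keep the membrane negative while calcium enters after receptor engagement; KCNN4 also acts in red cells, macrophages and mast cells, and potassium efflux is a trigger of the NLRP3 inflammasome in macrophages.

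The libraries held 27026196 to 39811230 counts, and a library's floor of 3 counts corresponded to 0.0723 to 0.145 CPM (counts relative to library sizes that were scaled by edgeR's TMM factors). The TMM factors were 0.753 to 0.759 at day 15 and 1.03 to 1.17 on the other days. Of 10 T-lineage markers, 7, 7, 10 and 7 were detected at days 10, 15, 20 and 25, and their summed level was 0.762 to 1.68 CPM, 8.08 to 9.66 CPM, 3.92 to 4.48 CPM and 2.33 to 3.21 CPM. CD3E and CD3G had 0 counts at days 10 and 15, and CD3D and CD3G had 0 counts at day 25, so the defining markers of the labelled γδ T cells were absent or near 0. Markers of other cells were higher. The 10 megakaryocyte and platelet markers summed to 7661 to 7920 CPM on day 10, 30387 to 31150 CPM on day 15, 512 to 530 CPM on day 20 and 137 to 140 CPM on day 25. The 10 monocyte and macrophage markers summed to 152 to 163 CPM, 1358 to 1440 CPM, 5723 to 5904 CPM and 6836 to 7101 CPM over the same days. In bulk RNA, fewer cells of a type and less RNA per cell cannot be told apart.

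Potassium channel transcripts were widespread but mostly low. KCNA6 had 0 counts in all libraries, 61 members reached a mean of 1 CPM on at least 1 day, 24 reached 10 CPM and 6 reached 100 CPM (KCNAB2, KCNK6, KCND3, KCNE3, KCNH2 and KCNT2). The filter on low counts let 75 members into the test and kept 21 out. The number of members at 1 CPM or more was 30 at day 10, 45 at day 15, 47 at day 20 and 48 at day 25. In the joint test over the 4 days 68 of the 75 tested members (90.7%) were called, against 90.5% of all 20183 genes tested, so the members' share was near the background.

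Summed over all 96 members, the level was 459 ± 8.19 CPM on day 10, 1309 ± 15.2 CPM on day 15, 610 ± 6.11 CPM on day 20 and 869 ± 18.5 CPM on day 25 (mean ± SD, n = 3 libraries per day). Voltage-gated channel genes had the largest class sum at day 15, with 102 ± 2.65, 526 ± 9.81, 140 ± 6.81 and 124 ± 2.65 CPM over the 4 days. A large part was KCND3, with means of 1.1, 249, 0.994 and 0.508 CPM. KCNH2 had 39.6, 118, 51.6 and 24.2 CPM. The sum of the two-pore domain genes also peaked at day 15, with 194 ± 7.09, 381 ± 5.69, 98.8 ± 1.64 and 115 ± 6.93 CPM. Most of it was KCNK6, with means of 129, 351, 65.4 and 70.7 CPM. Of the 11 two-pore domain genes tested, 4 had their highest mean at day 15. The sums of auxiliary subunits and of inward rectifiers were instead higher on each later day, with no overlap between the libraries of different days. The auxiliary subunits summed to 106 ± 2, 205 ± 7.94, 281 ± 1.53 and 477 ± 7.55 CPM, and the inward rectifiers to 10.9 ± 1.45, 22.1 ± 1.1, 37.2 ± 1.25 and 51.9 ± 2.07 CPM. The climb of the auxiliary sum was mostly that of KCNAB2, with means of 25.1, 73.1, 226 and 405 CPM. KCNE3, of the same class, had 71.6, 118, 29.7 and 38.5 CPM. Of the 14 inward rectifiers tested, 5 had their highest mean at day 25 and 5 at day 20. Most of the last rise of their sum came from KCNJ5 and KCNJ1. KCNJ5 had 2.99 CPM on day 20 and 11.9 CPM on day 25, and KCNJ1 0.457 and 5.59 CPM. Calcium-activated channel genes stood at 33.9 ± 1.87, 62.2 ± 2.44, 48.9 ± 2.31 and 98.2 ± 4.9 CPM, of which KCNN4 had 9.94, 6.25, 4.92 and 56.8 CPM. All sums are CPM after TMM, so their day 15 values depend on that day's low TMM factors. Within each of these 5 classes no library of day 25 overlapped a library of day 10.

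**Figure D1:**
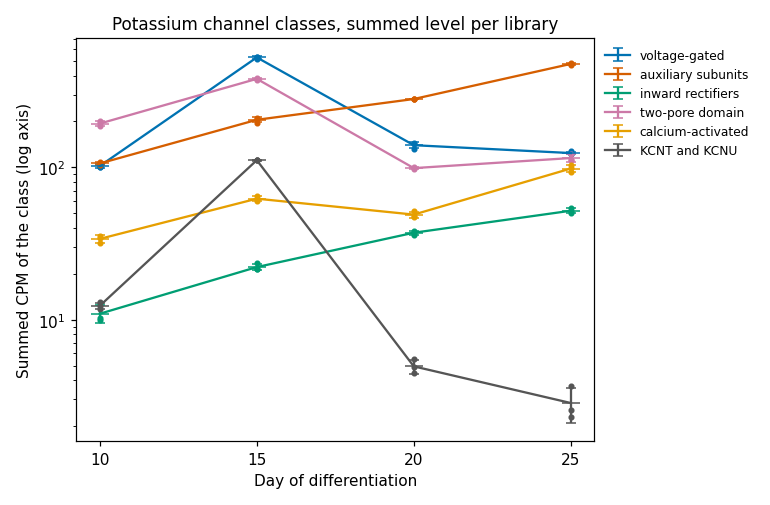
Summed CPM of each potassium channel class (log axis) against the day of differentiation. Points are libraries, dashes are means and bars are SD (n = 3 libraries per day). The sums of voltage-gated, two-pore domain and KCNT and KCNU genes peaked at day 15. Those of auxiliary subunits and inward rectifiers were highest at day 25. KCNK6 made most of the two-pore domain sum, and KCNAB2 most of the auxiliary sum at days 20 and 25.

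Few members had their highest level at day 10. Among the 75 tested members the highest mean fell at day 10 for 5 (6.67%, against 25.0% of all genes tested), at day 15 for 26 (34.7%, against 34.0%), at day 20 for 16 (21.3%, against 15.1%) and at day 25 for 28 (37.3%, against 25.9%). Of the 28 voltage-gated genes tested, 12 peaked at day 15 and 10 at day 25. Of the 12 auxiliary subunits tested, 8 peaked at day 25 and none at day 10.

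**Figure D2:**
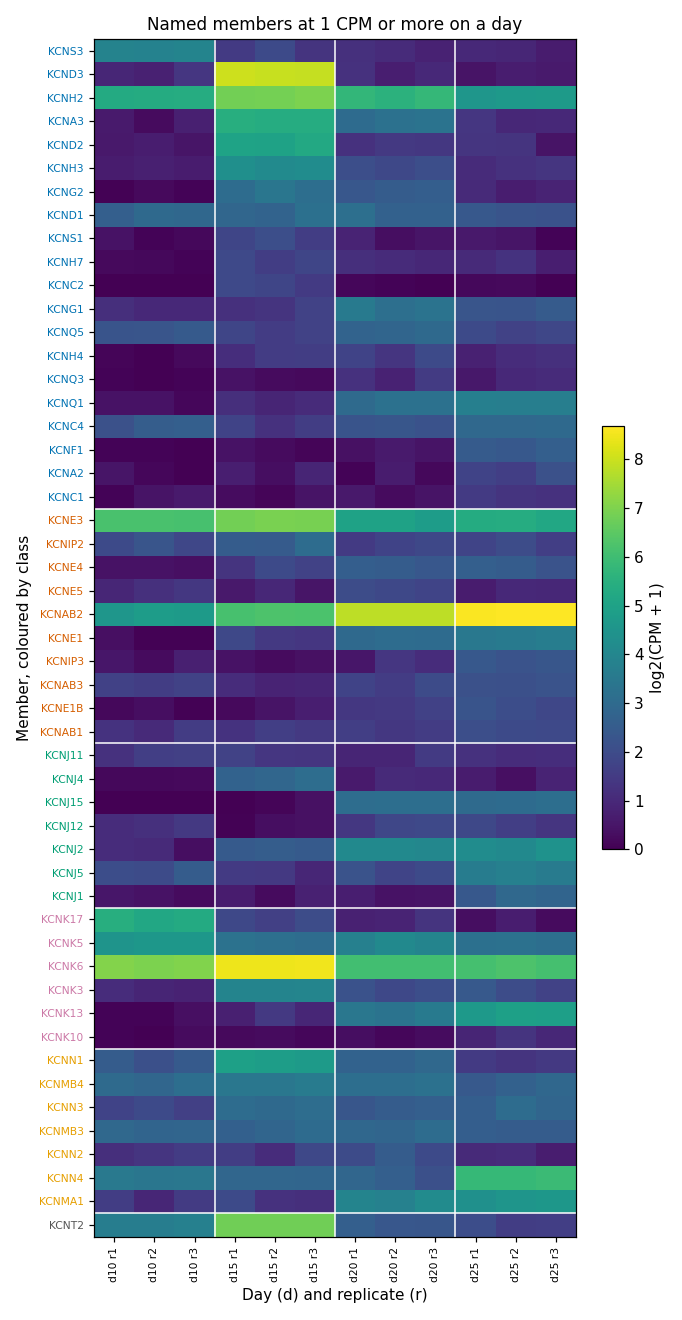
Levels of 51 members named in the text that reached a mean of 1 CPM on a day, as log2(CPM + 1), in each of the 12 libraries. Members are in rows, grouped by class (row label colour) and ordered by the day of their highest mean. Replicate columns of a day look alike, with the brightest cells in KCNAB2 at day 25 and in KCNK6 and KCND3 at day 15.

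At day 15 against day 10, 50 members (66.7% of those tested, with a background of 73.2% of all genes) were called. Of these, 39 rose (52.0%, background 42.4%) and 11 fell (14.7%, background 30.8%), 32 and 9 of them at least 2-fold (background 28.2% and 14.7%). Their median log2 fold change was 0.91, against 0.20 for all genes tested. This split depended on the scaling: with library size alone, which shifts the median of all genes by -0.53, 28 members were higher and 15 lower, so the share of higher calls was 65.1% instead of 78.0%. At day 20 against day 15, 69.3% of the tested members were called (background 76.6%). Of these, 26 rose (34.7%, background 40.6%) and 26 fell (34.7%, background 36.0%), with a median of 0.23 against 0.10, and 22 rises and 20 falls were at least 2-fold (background 23.7% and 22.2%). With library size alone, which shifts the median by 0.62 here, 35 members were higher and 16 lower, a share of 68.6% instead of 50.0%.

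At day 25 against day 20, 60.0% of the tested members were called (background 49.7%). Here 23 members rose (30.7%, background 24.5%) and 22 fell (29.3%, background 25.1%), with a median log2 fold change of 0.02 against -0.03 over all genes, and 13 rises and 14 falls were at least 2-fold (background 6.70% and 6.86%). At day 25 against day 10, 77.3% of the tested members were called (background 74.5%). Of these, 41 rose (54.7%, background 38.6%) and 17 fell (22.7%, background 36.0%), with a median of 1.11 against 0.02. Most of the 41 rises, 39, were at least 2-fold (background 26.5% of all genes), as were 8 of the 17 falls (background 16.5%). The comparisons share libraries, so they are not independent of each other.

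**Figure D3:**
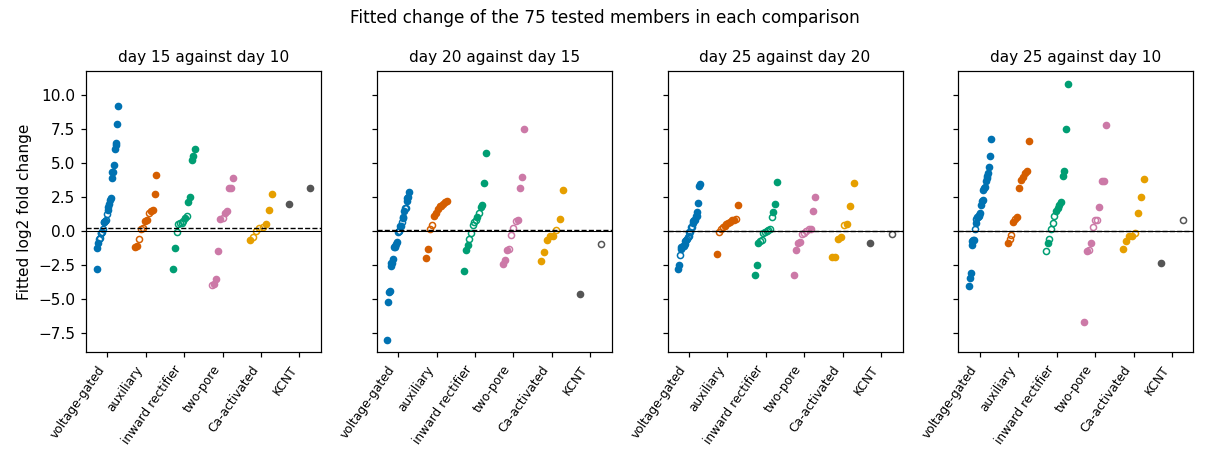
Fitted log2 fold change (later over earlier day) of the 75 tested members in the 4 comparisons, by class. Filled circles passed an adjusted p under 0.05, open circles did not, and the dashed line is the median of all genes tested. Points of members with 0 counts on either day compared, such as KCNC2, KCNJ15 and KCNK2, depend on the fit's prior count. Auxiliary subunits lie mostly above the line at day 25 against day 10.

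RefSeq promoter windows, each the 250 bases before a gene's most upstream start, were at hand for 71 of the 96 members. Their median GC content was 64.8%, against 57.6% for all 27305 windows of this length. The letters AGATAA, read on either strand, as bound by GATA factors, were found in 2 of 71 member windows (2.82%, against 9.40% of all windows), those of KCNC2 and KCNMB3. The letters TGTGGT, as bound by RUNX factors, were in 5 member windows (7.04%, against 11.0% of all), again counting either strand. The TATA box letters, TATAAA on either strand, were in 7 (9.86%, against 11.2%). A match is a description of letters and not a bound site.

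The windows of 3 genes with a sharp maximum at day 15 and of KCNJ1, highest at day 25, show how unlike in base composition the promoters are. They come from RefSeq (GRCh38.p14) and are all on the minus strand, written 5′ to 3′ with the letters searched for in capitals. Only the bases outside the annotated gene are printed, so 3 of the 4 are shorter than 250 bases, and the GC content given is that of the printed bases. The KCND3 window, chr1:111989669-111989918, has a GC content of 82.8% and the KCNA3 window, chr1:110675034-110675190, one of 70.7%, and neither holds any of the letters. The KCNC2 window, chr12:75209869-75210089, has 44.8% GC and holds AGATAA and TGTGGT, and the KCNJ1 window, chr11:128867374-128867546, has 43.9% GC and holds TATAAA.
KCND3: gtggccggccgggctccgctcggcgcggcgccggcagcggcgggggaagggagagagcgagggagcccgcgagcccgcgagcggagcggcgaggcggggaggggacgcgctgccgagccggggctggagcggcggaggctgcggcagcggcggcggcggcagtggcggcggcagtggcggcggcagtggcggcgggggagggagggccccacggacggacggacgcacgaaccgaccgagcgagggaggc
KCNA3: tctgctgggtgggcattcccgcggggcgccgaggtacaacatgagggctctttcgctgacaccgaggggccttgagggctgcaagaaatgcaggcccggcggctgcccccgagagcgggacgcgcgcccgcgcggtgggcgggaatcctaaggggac
KCNC2: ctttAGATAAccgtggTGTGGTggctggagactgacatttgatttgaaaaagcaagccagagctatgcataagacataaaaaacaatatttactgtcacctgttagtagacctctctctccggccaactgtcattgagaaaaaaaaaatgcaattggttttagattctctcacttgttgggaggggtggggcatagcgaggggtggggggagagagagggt
KCNJ1: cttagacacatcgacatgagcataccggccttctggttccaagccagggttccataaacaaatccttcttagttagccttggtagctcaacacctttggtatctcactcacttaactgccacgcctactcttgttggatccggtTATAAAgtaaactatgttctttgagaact

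Among voltage-gated channels, the A-type genes KCND3 and KCND2, which encode rapidly inactivating channels known from heart and brain, were high on a single day. KCND3 (ENSG00000171385, chromosome 1 from 111770662 to 111989155, minus strand, GRCh38) stood at 0.921, 0.753 and 1.62 CPM in the day 10 libraries, 259, 245 and 244 CPM on day 15, 1.34, 0.659 and 0.986 CPM on day 20 and 0.378, 0.603 and 0.544 CPM on day 25. The day 15 libraries did not overlap those of any other day. KCND3 was 234-fold higher at day 15 than at day 10 (log2 fold change 7.87, SE 0.11, adjusted p = 4.7e-38 in edgeR's quasi-likelihood test, higher in 3 of 3 libraries). The gene with the most GC-rich of the printed promoter windows then fell 251-fold at day 20 (log2 fold change -7.97, SE 0.11). Its smaller fall at day 25 against day 20 (log2 fold change -0.93, adjusted p = 0.0058) did not pass without day 20 replicate 1 (-0.66, adjusted p = 0.081).

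KCND2 (chromosome 7 from 120273668 to 120750331) was likewise highest at day 15, with 0.508, 0.602 and 0.405 CPM on day 10, 31.6, 31.3 and 36.6 CPM on day 15, 1.34, 1.69 and 1.67 CPM on day 20 and 1.54, 1.45 and 0.384 CPM on day 25. Per kilobase of exon KCND2 was below KCND3 at day 15, at 5.97 against 31.7 CPM per kb. It was above KCND3 at day 20 (0.282 against 0.126 CPM per kb) and at day 25 (0.203 against 0.0647 CPM per kb). The day 15 libraries stood clear of all others. It was 64.2-fold higher at day 15 than at day 10 (adjusted p = 1.2e-22) and fell 21.1-fold at day 20. KCND1, the other A-type gene of the family, had means of 6.17, 6.79, 6.34 and 3.85 CPM over the 4 days. It passed neither test before day 25, when it fell (log2 fold change -0.72 against day 20).

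KCNA3, a delayed rectifier known from T cells, had its maximum at day 15 too. KCNA3 (ENSG00000177272, chromosome 1 from 110672465 to 110675033, minus strand) had 0.54, 0.201 and 0.709 CPM on day 10, 43, 40.8 and 40.5 CPM on day 15, 7.18, 8.45 and 8.96 CPM on day 20 and 1.58, 0.94 and 1.02 CPM on day 25. No library of a day overlapped one of another day. KCNA3 rose 89.6-fold at day 15 (adjusted p = 2.9e-29), fell 5.05-fold at day 20 and fell 7.03-fold at day 25 against day 20. At day 25, when the labels name mature γδ T cells, it was 2.52-fold above day 10 (log2 fold change 1.34, SE 0.29).

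Of the related genes, KCNA2 had 0.413, 0.1 and 0 CPM on day 10, 0.675, 0.242 and 0.844 CPM on day 15, 0.0608, 0.573 and 0.149 CPM on day 20 and 2.36, 2.07 and 3.43 CPM on day 25. The first 3 days overlapped and day 25 lay above them. KCNA2 rose 9.76-fold at day 25 against day 20 (adjusted p = 2.7e-05). Its call at day 15 against day 10 (log2 fold change 1.79, adjusted p = 0.025) was lost with DESeq2 (adjusted p = 0.11), with library size alone and without day 10 replicate 2, day 10 replicate 3, day 15 replicate 1 or day 15 replicate 3 (adjusted p = 0.1, 0.095, 0.072 and 0.13). KCNA5, a delayed rectifier of atrial muscle and macrophages, stayed at or below 1.02 CPM in every library and rose at day 25 against day 10, to 0.721 ± 0.265 CPM on day 25 against 0.0392 ± 0.0351 CPM on day 10 (4 counts over 3 libraries).

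The ether-à-go-go genes KCNH2 and KCNH3 rose at day 15 and fell after it. KCNH2, which encodes the hERG channel of cardiac repolarisation, had 38.6, 39.7 and 40.5 CPM on day 10, 113, 115 and 125 CPM on day 15, 53.2, 47.1 and 54.6 CPM on day 20 and 22.7, 24.5 and 25.3 CPM on day 25. The days did not overlap, and day 25 was the lowest. KCNH2 rose 2.97-fold at day 15 and fell 2.28-fold at day 20 and 2.14-fold at day 25 against day 20. KCNH3 rose 28.8-fold, to 18.9, 16.8 and 17.6 CPM on day 15, against 0.572, 0.678 and 0.574 CPM on day 10, and then fell 5.81-fold at day 20. The neighbouring gene MCRS1 on the other strand shares 14 exon bases with KCNH3, and strand use in counting is not given. KCNH7 and KCNH4 were at or below 2.42 CPM in their means; both rose at day 15 (log2 fold change 4.31 and 4.34), and KCNH7 shares 189 exon bases with GCA.

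**Figure D4:**
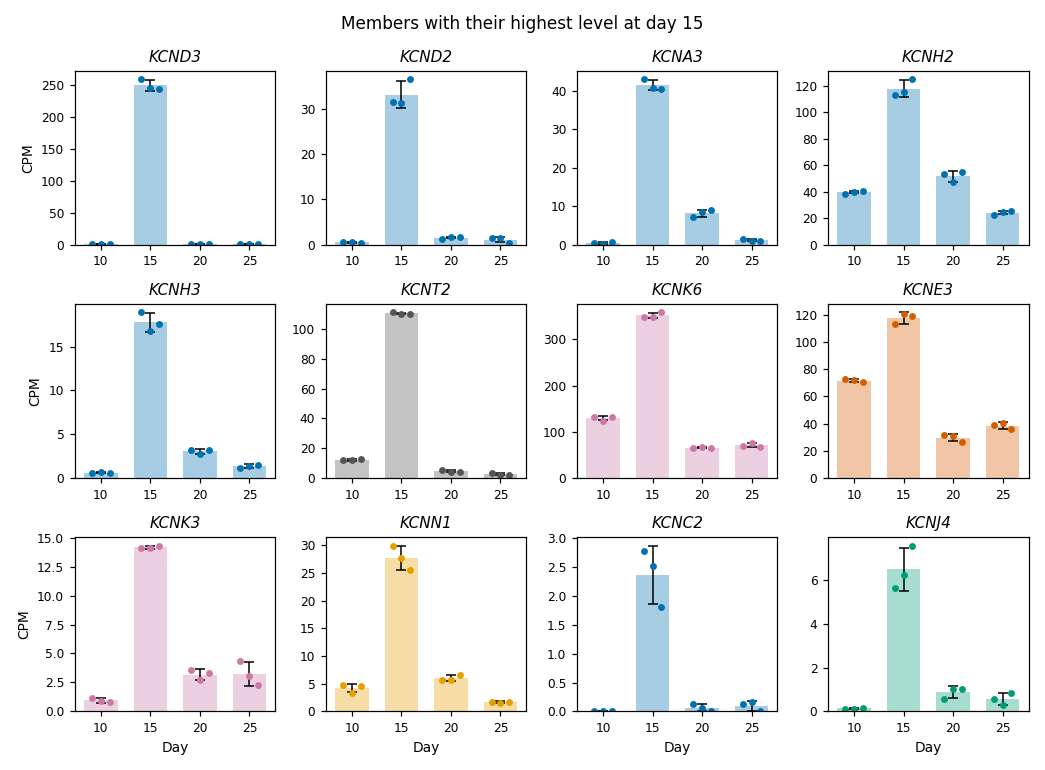
CPM of 12 members whose highest mean fell at day 15, by day. Bars are means from 0, error bars are SD (n = 3 libraries per day), points are libraries, and colour marks the class. KCND3, KCND2, KCNC2 and KCNT2 were high on that day alone, while KCNK6, KCNH2 and KCNE3 were already above 30 CPM on day 10.

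Of the KCNQ genes, KCNQ1, the pore of the slow cardiac repolarising current when it pairs with KCNE1, rose at every step. It had 0.349, 0.326 and 0.101 CPM on day 10, 1.27, 0.87 and 1.09 CPM on day 15, 7.09, 8.51 and 8.49 CPM on day 20 and 12.4, 12.1 and 12.2 CPM on day 25. The 4 days did not overlap. KCNQ1 was 45.1-fold higher at day 25 than at day 10 (log2 fold change 5.49, SE 0.25, adjusted p = 2.2e-23). The antisense transcript KCNQ1OT1, with which KCNQ1 shares 121 exon bases, had means of 15.5, 8.53, 11.5 and 10.6 CPM over the 4 days.

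KCNQ3 and KCNQ5, subunits of the neuronal M-current, also had more transcript at day 20 than at day 15. KCNQ3 rose 5.72-fold at day 20, with 1.37, 0.774 and 1.88 CPM on day 20 against 0.338, 0.193 and 0.161 CPM on day 15. KCNQ5 had means of 4.04, 2.22, 6.26 and 2.58 CPM, falling at day 15, rising at day 20 and falling at day 25 against day 20.

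Of the Shaw-type channel genes, which encode channels of fast-spiking neurons, KCNC1 rose at day 25, with a mean of 1.54 ± 0.233 CPM on day 25 against 0.369 ± 0.159 CPM on day 20 (SD, n = 3). KCNC4 first fell at day 15, to 1.89 ± 0.494 CPM against 4.49 ± 0.898 CPM on day 10 (log2 fold change -1.23), and rose at day 20 (0.98). It rose again at day 25, with 6.64 ± 0.126 CPM against 3.77 ± 0.185 CPM on day 20. The call of KCNC4 at day 25 against day 10 (log2 fold change 0.56) was lost without day 10 replicate 1 (0.41, adjusted p = 0.072).

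KCNC2 (chromosome 12 from 75040077 to 75209868, minus strand) had 0 counts at day 10 and 2.78, 2.51 and 1.81 CPM on day 15, then 0.122, 0.0573 and 0 CPM on day 20 and 0.126, 0.169 and 0 CPM on day 25. Its transcript was thus largely limited to the day 15 libraries. AC073525.1 on the other strand shares 2298 exon bases with KCNC2 and had a mean of 0.137 CPM on that day. Strand use in counting is not given. Against a floor of 3 counts over the day 10 libraries KCNC2 was at least 79.7-fold higher at day 15, and it fell 37.4-fold at day 20 (adjusted p = 8.6e-08). Of the printed windows, its own was the one with the AGATAA letters.

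The silent subunits KCNF1, KCNG1, KCNG2, KCNS1 and KCNS3, which form no channel alone but modify channels of the KCNB type, peaked on different days. KCNS3 was a day 10 gene, with 13.6, 13.4 and 14.1 CPM on day 10, 1.81, 2.85 and 1.49 CPM on day 15, 1.28, 1.12 and 0.777 CPM on day 20 and 1.01, 0.916 and 0.576 CPM on day 25. Day 10 lay above all other days. KCNS3 fell 6.75-fold at day 15 (adjusted p = 4.6e-15).

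KCNG2 peaked at day 15, with 0.0318, 0.176 and 0.0675 CPM on day 10, 7.3, 9.57 and 7.76 CPM on day 15, 4.17, 4.79 and 5.02 CPM on day 20 and 1.07, 0.627 and 0.8 CPM on day 25. Its rise at day 15 was 80.1-fold, and its fall at day 20 (log2 fold change -0.81) did not pass with library size alone (-0.19). KCNG1 peaked at day 20, at 9.27 CPM on average against 1.7 CPM on day 15 (log2 fold change 2.44).

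KCNF1 was a day 25 gene. It had 0.0635, 0.0502 and 0 CPM on day 10, 0.338, 0.193 and 0.0804 CPM on day 15, 0.304, 0.545 and 0.388 CPM on day 20 and 4.63, 4.27 and 5.19 CPM on day 25. The last day lay above the rest. KCNF1 rose 11.2-fold at day 25 against day 20 (adjusted p = 1.3e-10).

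Among the auxiliary subunits, KCNAB2, a cytosolic β subunit of KCNA channels with an oxidoreductase fold, had the highest level per kilobase of exon of all members at days 20 and 25. KCNAB2 (ENSG00000069424, chromosome 1 from 5991466 to 6101193) had 22.4, 27.1 and 25.7 CPM on day 10, 70.1, 75.2 and 74 CPM on day 15, 226, 227 and 227 CPM on day 20 and 396, 410 and 407 CPM on day 25. The 4 days were separate and each was above the one before. KCNAB2 rose 2.91-fold at day 15, 3.1-fold at day 20 and 1.79-fold at day 25 against day 20, and was 16.1-fold higher at day 25 than at day 10 (log2 fold change 4.01, SE 0.05, adjusted p = 8.4e-45). NPHP4 on the other strand shares 111 exon bases with it and had means of 19.3, 14.5, 19.7 and 20 CPM. The level of KCNA3, a channel KCNAB2 can bind, fell over the last steps in which KCNAB2 rose.

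KCNE1, the single-span β subunit of KCNQ1, rose at each step alongside its partner. It had 0.286, 0.0251 and 0.0338 CPM on day 10, 2.66, 1.74 and 1.57 CPM on day 15, 6.84, 7.45 and 7.14 CPM on day 20 and 10.1, 10.8 and 11.9 CPM on day 25. The days did not overlap, and KCNE1 was 96.4-fold higher at day 25 than at day 10 (log2 fold change 6.59, SE 0.33). KCNE1B is a similar copy that can share reads with KCNE1, so the split between them is uncertain. The sum of KCNE1 and KCNE1B was 13.8, 14 and 14.5 CPM on day 25, against 0.413, 0.276 and 0.0675 CPM on day 10.

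KCNE3, a β subunit that can hold KCNQ1 open, went the other way over the whole course. It had 72.5, 71.9 and 70.6 CPM on day 10, 113, 121 and 119 CPM on day 15, 31.4, 30.7 and 26.8 CPM on day 20 and 39.1, 40.7 and 35.8 CPM on day 25. Day 15 was the highest and day 20 the lowest, with no overlap between days. KCNE3 fell 3.97-fold at day 20 (adjusted p = 3.7e-30) and was 1.86-fold lower at day 25 than at day 10.

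KCNE4 had means of 0.324, 2.21, 4.69 and 4.56 CPM and rose at day 15 and day 20 (log2 fold change 2.74 and 1.09). KCNE5 had 3.07, 2.69 and 2.42 CPM on day 20 against 0.506, 0.967 and 0.402 CPM on day 15, a 4.42-fold rise, and then fell 3.15-fold at day 25. It shares 78 exon bases with ACSL4, which had 154 to 362 CPM in its day means. The call of KCNE5 at day 15 against day 10 (log2 fold change -1.07) was lost without day 10 replicate 3 (-0.87), day 15 replicate 1 (-0.94) or day 15 replicate 3 (-0.83).

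The KCNIP genes encode calcium-binding partners of the A-type channels. KCNIP2, the cardiac partner, had means of 3.12, 5.59, 2.25 and 2.51 CPM, rose at day 15 (log2 fold change 0.83) and fell at day 20 (-1.32), in the same direction as KCND3 and KCND2 but far less. Its antisense gene KCNIP2-AS1 shares 413 exon bases with it and had means of 0.701, 1.61, 0.266 and 0.466 CPM. KCNIP3, also known as a nuclear calcium sensor, was highest at day 25, at 3.98 CPM against 1.06 CPM on day 20 (log2 fold change 1.90). KCNAB1 and KCNAB3, β subunits like KCNAB2, rose to 2.96 and 3.51 CPM on day 25, against 1.46 and 2.16 CPM on day 10.

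**Figure D5:**
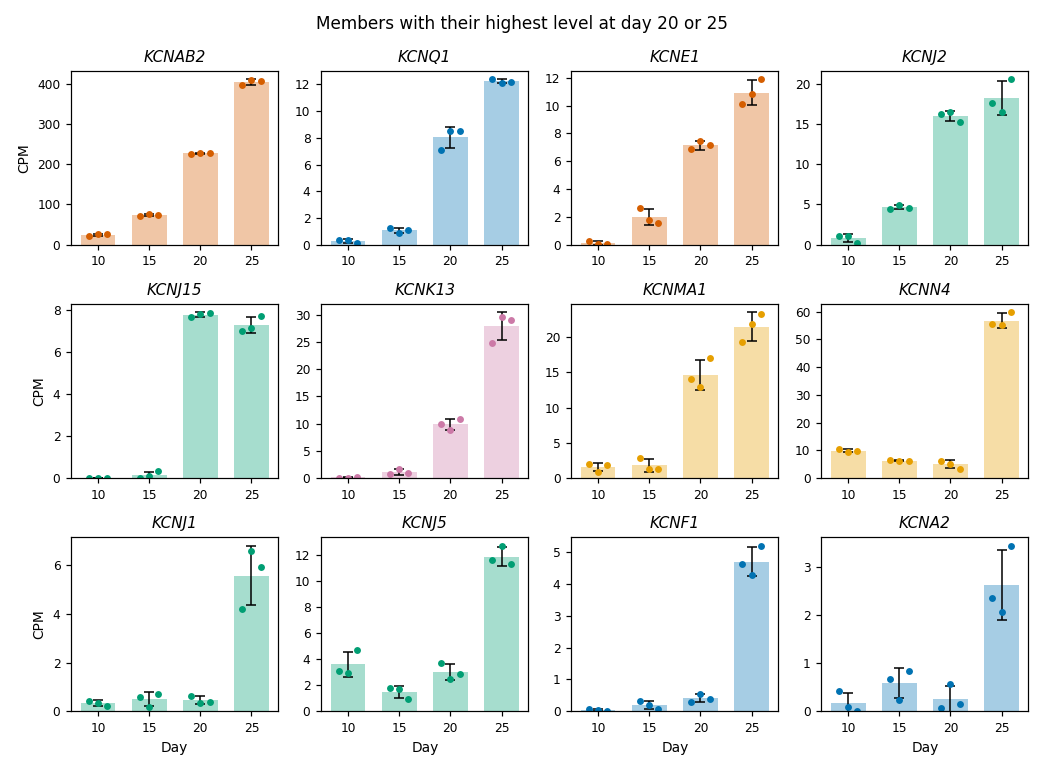
CPM of 12 members whose highest mean fell at day 20 or day 25, by day. Bars are means from 0, error bars are SD (n = 3 libraries per day), points are libraries, and colour marks the class. KCNAB2, KCNQ1, KCNE1 and KCNK13 climbed over all days, while KCNN4, KCNJ1, KCNJ5, KCNF1 and KCNA2 were highest at day 25 after low values at days 15 and 20.

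Among inward rectifiers, KCNJ2, the strong rectifier that sets the resting potential in muscle and macrophages, had the highest mean level per kilobase of exon in its class at days 20 and 25. It had 1.14, 1.03 and 0.236 CPM on day 10, 4.47, 4.93 and 4.5 CPM on day 15, 16.2, 16.5 and 15.3 CPM on day 20 and 17.6, 16.5 and 20.6 CPM on day 25. Days 20 and 25 overlapped and lay above the earlier days. KCNJ2 rose 5.58-fold at day 15 and 3.46-fold at day 20 (adjusted p = 2.3e-12). The difference at day 25 against day 20 was 0.18 on the log2 scale (SE 0.14, adjusted p = 0.3).

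KCNJ15 (chromosome 21 from 38155549 to 38307357) appeared at day 20. It had 0 counts in the 3 libraries of day 10, then 0, 0.0967 and 0.322 CPM on day 15, 7.69, 7.82 and 7.89 CPM on day 20 and 7, 7.14 and 7.75 CPM on day 25. Days 20 and 25 overlapped and were far above the others. KCNJ15 rose 52.7-fold at day 20 (adjusted p = 6.6e-18) and was at least 245-fold higher at day 25 than at day 10. Its call at day 15 against day 10, at least 4.69-fold, did not hold when day 15 replicate 3 was left out (3.64 on the log2 scale, adjusted p = 0.057).

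KCNJ1 and KCNJ5 lie next to each other on chromosome 11, on opposite strands, and both were highest at day 25. KCNJ1, the renal outer medullary channel gene (from 128836315 to 128867373, minus strand), had 0.445, 0.351 and 0.203 CPM on day 10, 0.591, 0.193 and 0.723 CPM on day 15, 0.639, 0.344 and 0.388 CPM on day 20 and 4.22, 6.58 and 5.95 CPM on day 25. The first 3 days overlapped. KCNJ1, whose window holds the TATAAA letters, rose 12.2-fold at day 25 against day 20 (log2 fold change 3.61, SE 0.35, adjusted p = 7.8e-12).

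KCNJ5, a subunit of the G protein-gated atrial channel (from 128891356 to 128921035, plus strand), had 3.11, 2.96 and 4.73 CPM on day 10, 1.81, 1.74 and 0.924 CPM on day 15, 3.68, 2.46 and 2.84 CPM on day 20 and 11.6, 12.7 and 11.3 CPM on day 25. It fell 2.41-fold at day 15 and rose 3.98-fold at day 25 against day 20 (adjusted p = 1.2e-11). The antisense gene KCNJ5-AS1 overlaps KCNJ5 without sharing exon bases and had means of 5.13, 1.5, 4.4 and 44 CPM. Since strand use is not given, reads from unspliced antisense RNA and from KCNJ5 cannot be told apart.

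KCNJ4 and KCNJ12 moved in opposite directions at day 15. KCNJ4, a strong rectifier, had 5.65, 6.24 and 7.56 CPM on day 15 against 0.127, 0.125 and 0.169 CPM on day 10, a 45.4-fold rise, and fell 7.45-fold at day 20. KCNJ12 had 0.0422, 0.242 and 0.322 CPM on day 15 against 1.17, 1.28 and 1.72 CPM on day 10, a 6.75-fold fall. It rose 11.5-fold at day 20, to 1.67, 2.64 and 2.78 CPM, and its split from the similar copy KCNJ18 is uncertain. KCNJ11, the pore of the ATP-sensitive channel, had means between 1.17 and 1.86 CPM and passed none of the 4 comparisons.

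Among two-pore domain channels KCNK6, whose product is found in endosomes and lysosomes, had the highest mean level per kilobase of exon in its class on each day. KCNK6 (ENSG00000099337, chromosome 19 from 38319844 to 38332076) had 132, 124 and 131 CPM on day 10, 348, 348 and 358 CPM on day 15, 64.7, 66.2 and 65.2 CPM on day 20 and 68.3, 76.1 and 67.9 CPM on day 25. Day 15 was the highest and the later 2 days the lowest. KCNK6 rose 2.72-fold at day 15 (adjusted p = 1.2e-30) and fell 5.37-fold at day 20 (adjusted p = 1.9e-38). Its call at day 25 against day 20 (log2 fold change 0.12) turned to -0.05 with library size alone and was lost without day 20 replicate 1 (0.11), day 20 replicate 3 (0.12) or day 25 replicate 2 (0.06).

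KCNK17 and KCNK5, alkaline-activated channels whose genes lie on the same part of chromosome 6, were highest at day 10. KCNK17 had 42.7, 36.2 and 38.3 CPM on day 10, 2.7, 2.13 and 3.05 CPM on day 15, 0.73, 0.831 and 1.46 CPM on day 20 and 0.252, 0.627 and 0.192 CPM on day 25. Each day was below the one before, with no overlap. KCNK17 fell 14.7-fold at day 15 and was 102-fold lower at day 25 than at day 10 (log2 fold change -6.67, SE 0.21, adjusted p = 8.1e-27). KCNK5 had 21.6, 22.9 and 23 CPM on day 10, 8.61, 8.02 and 7.48 CPM on day 15, 12.8, 16.2 and 14.2 CPM on day 20 and 8.13, 8.39 and 7.81 CPM on day 25. It fell 2.8-fold at day 15, rose 1.79-fold at day 20 and fell 1.77-fold at day 25 against day 20.

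KCNK13, a halothane-inhibited channel known from microglia, rose throughout. It had 0.0635, 0.0502 and 0.27 CPM on day 10, 0.717, 1.69 and 0.924 CPM on day 15, 9.88, 8.88 and 10.9 CPM on day 20 and 24.9, 29.6 and 29.1 CPM on day 25. The days did not overlap. KCNK13 was 227-fold higher at day 25 than at day 10 (log2 fold change 7.82, SE 0.26, adjusted p = 8.1e-28). Markers of several other cell types were higher on the later days too. The 10 monocyte and macrophage markers summed to 6836 to 7101 CPM on day 25 against 152 to 163 CPM on day 10. The 10 neutrophil granule markers summed to 442 to 461 CPM on day 10, 5742 to 6039 CPM on day 15, 18263 to 18620 CPM on day 20 and 8411 to 8576 CPM on day 25. The 10 stromal markers summed to 1144 to 1172 CPM, 1568 to 1640 CPM, 6928 to 7039 CPM and 4652 to 4734 CPM over the same days, and the 10 epithelial markers to 173 to 179 CPM, 172 to 179 CPM, 1272 to 1333 CPM and 453 to 473 CPM. Their part in the change of KCNK13, KCNJ2, KCNJ15 and KCNAB2 was not tested.

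KCNK3, an acid-sensitive leak channel, peaked at day 15 with 14.1, 14.1 and 14.3 CPM, against 1.17, 0.878 and 0.776 CPM on day 10 (15-fold higher), and fell 4.47-fold at day 20. KCNK10, a mechano-gated channel gene, reached 0.883, 1.45 and 0.96 CPM on day 25 against 0.243, 0.115 and 0.209 CPM on day 20, a 5.75-fold rise (adjusted p = 0.0011). KCNK2, of the same subgroup, had 0 counts at day 15 and means of 0.714 CPM on day 20 and 0.771 CPM on day 25. KCNK18, which encodes a calcineurin-regulated channel, had 2 counts in all, both at day 25, and was not tested.

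Among calcium-activated channels KCNN4, the intermediate-conductance channel of lymphocytes, red cells and macrophages, had the highest level per kilobase of exon in its class at day 25. KCNN4 (ENSG00000104783, chromosome 19 from 43766533 to 43781261, minus strand) had 10.4, 9.54 and 9.82 CPM on day 10, 6.37, 6.28 and 6.11 CPM on day 15, 6.3, 5.13 and 3.35 CPM on day 20 and 55.5, 55.1 and 59.7 CPM on day 25. The day 25 libraries lay far above the rest, and days 15 and 20 overlapped. KCNN4 rose 11.5-fold at day 25 against day 20 (log2 fold change 3.53, SE 0.12, adjusted p = 1.2e-25). Its call at day 20 against day 15 (-0.35, adjusted p = 0.028) turned to 0.28 with library size alone and was lost without day 15 replicate 1 (-0.33), day 15 replicate 2 (-0.34) or day 20 replicate 3 (-0.13).

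KCNA3 and KCNN4, both named above for T cells, were thus highest on different days, KCNA3 at day 15 and KCNN4 at day 25. The summed T-lineage markers were 8.08 to 9.66 CPM on day 15 and 2.33 to 3.21 CPM on day 25. Megakaryocyte and platelet markers summed to 30387 to 31150 CPM and 137 to 140 CPM on these days. Monocyte and macrophage markers summed to 1358 to 1440 CPM and 6836 to 7101 CPM. The part of any of these cell types in either gene's level was not tested.

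The small-conductance genes KCNN1, KCNN2 and KCNN3, best known from neurons, had other courses. KCNN1 had 4.73, 3.34 and 4.52 CPM on day 10, 29.9, 27.8 and 25.5 CPM on day 15, 5.69, 5.7 and 6.63 CPM on day 20 and 1.77, 1.49 and 1.7 CPM on day 25. It rose 6.65-fold at day 15 and fell 4.61-fold at day 20 and 3.65-fold at day 25 against day 20. KCNN2 was highest at day 20, with 2.98, 4.81 and 2.87 CPM, and fell 3.76-fold at day 25, to 1.04, 1.16 and 0.608 CPM. Its rise at day 20 (log2 fold change 0.86) was lost without day 15 replicate 2 (0.61) or day 20 replicate 2 (0.58). KCNN3 had means of 2.47, 7.31, 4.65 and 6.18 CPM and rose at day 15 (log2 fold change 1.55).

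KCNMA1, the pore of the large-conductance BK channel, had 1.97, 0.904 and 1.86 CPM on day 10, 2.87, 1.35 and 1.25 CPM on day 15, 14, 13 and 17.1 CPM on day 20 and 19.3, 21.9 and 23.3 CPM on day 25. Days 10 and 15 overlapped, and both lay below days 20 and 25. KCNMA1 rose 7.99-fold at day 20 (adjusted p = 4.3e-11), and its further rise at day 25 (log2 fold change 0.55) was lost with DESeq2 (0.58), with library size alone (0.39) and without day 20 replicate 2 (0.47) or day 25 replicate 3 (0.49).

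Of the BK β subunits, KCNMB4 had 7.02, 6.3 and 7.83 CPM on day 10, 9.87, 9.76 and 11.1 CPM on day 15, 7.75, 7.85 and 8.46 CPM on day 20 and 4.41, 5.5 and 6.47 CPM on day 25, and fell 1.47-fold at day 25 against day 20. Its other calls were small, and with library size alone its log2 fold change was 0.01 at day 15 against day 10 and 0.27 at day 20 against day 15. KCNMB1, the smooth muscle subunit, stayed at or below 1.25 CPM, and its rise at day 25 against day 20 was 3.58-fold (adjusted p = 0.011). KCNMB3 shares 3403 exon bases with PIK3CA, so its means of 4.87 to 6.64 CPM are uncertain.

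KCNT2, a sodium-activated channel gene, carried nearly all counts of the KCNT and KCNU class. It had 11.8, 11.8 and 12.7 CPM on day 10, 111, 110 and 110 CPM on day 15, 5.14, 4.18 and 4.03 CPM on day 20 and 3.15, 2 and 2.02 CPM on day 25. Day 15 stood alone. KCNT2 rose 9.13-fold at day 15 (adjusted p = 1.3e-31) and fell 24.9-fold at day 20 (adjusted p = 9.1e-36). KCNT1 stayed below 1 CPM in its means, and KCNU1 had 2 counts in all.

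The members that peaked at day 15 did so on the day with the highest summed megakaryocyte and platelet markers, 30387 to 31150 CPM. Other summed markers were highest on that day as well. Those of mast cells, basophils and eosinophils were at 8367 to 8902 CPM on day 15 against 193 to 210 CPM on day 10, endothelial markers at 3865 to 3946 CPM against 1562 to 1618 CPM, and erythroid markers at 699 to 721 CPM against 482 to 517 CPM. Single markers did not all follow these sums. At day 15 against day 10, 4 endothelial markers were called higher and 6 lower (42.4% and 30.8% of all genes). Of 9 tested erythroid markers, 4 were called higher and 5 lower over that step. At day 20 against day 15, 7 mast cell, basophil and eosinophil markers were called higher and 3 lower (40.6% and 36.0% of all genes). The summed cardiomyocyte markers, of which all 10 were detected, were also highest on day 15, at 163 to 168 CPM against 87.2 to 95.6 CPM on day 10. The neuronal and neuroendocrine markers, again 10 of 10 detected, summed to 29.8 to 30.1 CPM on day 15 and 134 to 141 CPM on day 25. The part of these cell types in the members' levels was not tested.

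Per kilobase of exon, which allows levels of different genes to be compared, the order of members changed from day to day. At day 10 KCNK6 led with 20.9 ± 0.693 CPM per kb, followed by KCNE3 with 19.5 ± 0.261 and KCNK17 with 18 ± 1.51 CPM per kb. KCNE3 and KCNK17 were not separate in every library, and with the length of the longest transcript in place of merged exons the 3 genes stood at 22.6, 22.8 and 22.9 CPM per kb. At day 15 KCNK6 led with 56.9 ± 0.917 CPM per kb, above KCNE3 with 32 ± 1.18 and KCND3 with 31.7 ± 1.03 CPM per kb, which were not separate, and above KCNH2 with 20 ± 1.1 CPM per kb.

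At day 20 KCNAB2 led with 23.7 ± 0.0541 CPM per kb, above KCNK6 with 10.6 ± 0.123 CPM per kb. At day 25 KCNAB2 led with 42.4 ± 0.772 CPM per kb. KCNN4 came next with 16.7 ± 0.746 CPM per kb, above KCNK6, KCNK13 and KCNE3 with 11.5 ± 0.749, 11.1 ± 1.02 and 10.5 ± 0.677 CPM per kb, whose neighbours in this order overlapped. Levels of KCNAB2 and of other members moved with the choice of length. With the longest transcript KCNAB2 stood at 94.7 CPM per kb at day 25 and 17.1 CPM per kb at day 15. KCNN4 stood at 25.3 CPM per kb at day 25. At day 20 the mean of KCNH2 (12 CPM per kb) then lay above that of KCNK6 (11.4 CPM per kb).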

How the data were processed

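Total RNA was turned into ligation-mediated (LM-Seq) libraries that were read as single reads, per the labels. The authors deposited a table of raw counts per gene and library, not normalised. The submitters' processing notes name the build GRCh38. The sources used here do not give the aligner, counter, annotation or strand use. Symbols came from a gene name table, and gene types, coordinates and exon lengths from GENCODE release 29.

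Counts were fitted in R 4.3.3 with edgeR 4.0.16 (filterByExpr with a minimum count of 10, TMM, robust glmQLFit, glmQLFTest). All 12 libraries and 20183 genes entered the fit, and a gene was called where its Benjamini-Hochberg adjusted p, over all genes tested, was under 0.05. Levels are CPM after TMM, and per-length levels are CPM per kilobase of merged exons. A fold against a day with 0 counts used a floor of 3 counts over that day's libraries and is a lower bound. In each library more genes had 2 counts than 1, so counts need not be independent molecules and floors cover counting error only. The fit was also run on simulated counts built from day 10 proportions, with a small set of genes changed at day 15. In the data most genes changed, so that run cannot check the scaling.

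Members and lists were chosen with earlier results of these data known. Described in full were members with at least 10 CPM on a day, per comparison the 6 largest called rises and falls at 1 CPM or more without overlap between the days, and a fixed panel of blood cell channels; other members are summarised, and a few that this rule names are not reported here. Alternatives were DESeq2 1.42.0 size factors and test, library size alone, no filter, a stricter filter, limma-voom (limma 3.58.1), a replicate block, a fit with the 2 compared days only, a threshold of 0.01, and leaving out each library. Tables and figures used Python 3.11.15, pandas 2.3.3 and matplotlib 3.10.9.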

Additional observations from a re-analysis of the deposited data

How the results depend on the processing

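Of the 9 counts of called members, all stayed within 1.5 times the value reported under the alternatives run, except the members lower at day 20 against day 15, which were 16 with library size alone instead of 26. Leaving out each library gave 70 to 74 members called by the joint test, 36 to 42 higher and 11 to 12 lower at day 15 against day 10, 25 to 31 and 24 to 28 at day 20 against day 15, 20 to 27 and 18 to 23 at day 25 against day 20, and 42 to 47 and 13 to 17 at day 25 against day 10. The reported 68 by the joint test and 41 higher at day 25 against day 10 lie below these ranges. The filter was rerun without each library, so the members tested need not be the same 75. Replicate numbers did not pair the libraries (correlations of same-numbered deviations from -0.0164 to 0.0156), and with a replicate block 39 and 11, 26 and 25, 21 and 22, and 41 and 15 members were called in the same order of comparisons. The fit to the compared days alone gives no joint test. Log2 fold changes that reversed were all small. With library size alone they were KCNJ1 0.44, KCNMB4 0.27 and KCNN4 0.28 at day 20 against day 15, KCNK3 -0.15 and KCNK6 -0.05 at day 25 against day 20, and KCNMA1 -0.28 and KCNN2 -0.21 at day 15 against day 10. With no filter KCNJ1 (day 20 against day 15) was 0.06 and KCNK3 (day 25 against day 20) -0.01. With limma-voom KCNK3 (day 25 against day 20) was -0.02 and KCNMB1 (day 25 against day 10) 0.06, and KCNMB1 was 0.01 with the replicate block. Leaving out single libraries gave -0.53 to 0.18 for KCNJ1 at day 20 against day 15 (0.18 without day 15 replicate 3, 0.00 without day 20 replicate 2), -0.38 to 0.01 for KCNJ12 and -0.24 to 0.21 for KCNK3 at day 25 against day 20 (KCNK3 -0.09 without day 20 replicate 2), -0.24 to 0.48 for KCNMA1 (-0.07 without day 10 replicate 2) and -0.89 to 0.00 for KCNMB1 at day 15 against day 10, and -0.55 to 0.34 for KCNMB1 at day 25 against day 10. Of these, only KCNK6, KCNMB4 and KCNN4 had passed the test in the comparison named. The cause was not tested. Members under the floor of 3 counts per library cannot be told from absent ones at this depth.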

Other observations

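The genes that move potassium or read its flux, taken from lists drawn up around the channels, had courses of their own. Of 5 genes tied to potassium efflux and the NLRP3 inflammasome, 5 rose at day 15 against day 10 (median log2 fold change 2.23, against 0.20 over all genes, of which 42.4% rose) and 5 rose at day 25 against day 20 (0.32, against -0.03, with 24.5% of all genes higher). At day 20 against day 15, 4 rose and NEK7, a partner of NLRP3, fell (log2 fold change -1.40, adjusted p = 6.6e-27 in edgeR's quasi-likelihood test). NLRP3, the sensor, had 63.4 ± 1.14 CPM at day 25 against 2.07 ± 0.407 CPM at day 10 (mean ± SD, n = 3), 30.5-fold higher. CASP1, its effector protease, had 39.3 ± 1.12 CPM at day 25 against 0.313 ± 0.0537 CPM at day 10. P2RX7, the ATP-gated channel that opens the way for potassium, had 14.1 ± 1.38 CPM at day 25 against 0.211 ± 0.166 CPM at day 10. Of 12 tested sodium-potassium pump genes, 7 rose and 3 fell at day 25 against day 10, when 38.6% of all genes tested rose and 36.0% fell. The β subunit ATP1B1 had 173 ± 5.04 CPM at day 25 against 8.53 ± 1.31 CPM at day 10, 20-fold higher.

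Of 13 genes of store-operated and related calcium entry, 7 rose and 3 fell at day 15 against day 10 (42.4% and 30.8% of all genes), and 4 rose and 8 fell at day 20 against day 15 (40.6% and 36.0% of all genes). The pore subunit ORAI2 had 432 ± 6.76 CPM at day 15 against 93 ± 5.94 CPM at day 10, and the calcium sensor STIM1 fell 8.15-fold at day 20, to 85.1 ± 4.53 CPM against 693 ± 14 CPM at day 15. TRPC6 fell 58.3-fold over that step, while TRPM2, an oxidant-sensitive channel of phagocytes, rose 5.69-fold. Of 4 tested genes of the volume-regulated anion channel, 3 rose at day 15 (42.4% of all genes) and 3 fell at day 20 (36.0% of all genes). LRRC8B had 22.2 ± 1.69 CPM at day 20 against 517 ± 4.98 CPM at day 15, 23.2-fold lower. DPP10, a partner of the A-type channels, was highest at day 20, at 6.45 ± 0.343 CPM against 1.27 ± 0.276 CPM at day 15, when KCND3 was highest. Of 28 tested voltage-gated sodium and calcium channel genes, 20 rose and 3 fell at day 25 against day 10 (38.6% and 36.0% of all genes), CACNA2D4 15.8-fold and SCN3B 17.2-fold.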
